A study of Mus musculus with 8 samples.

Results

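Connexins are the proteins of gap junctions, and 8 of their genes were followed in RNA of the mouse hippocampus: Gja1, Gjb6, Gjb2, Gjb1, Gjc3, Gjd2, Gja4 and Gjc1. They are 8 of the 24421 genes in the count tables. They were chosen by name with measured values in view, their levels in all 4 groups and earlier results for Gjb6 and Gja1 at postnatal day 3, so their levels and their treatment differences are descriptions without a test. The tissue came from the offspring of C57BL/6J mice, all labelled wildtype and male. In the IUGR groups (intrauterine growth retardation) the dams had received dexamethasone, a synthetic glucocorticoid, at 1 mg/kg per day by intraperitoneal injection for 5 days from 14.5 days post coitum. In the NS groups the dams had received the same volume of normal saline. Hippocampi were taken at week 8 and at postnatal day 3, and the 4 groups were IUGR week 8, NS week 8, IUGR day 3 and NS day 3, with 2 libraries each. The series title points to neurogenesis and cognition after restricted fetal growth.

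Rings of connexins in the membrane form hemichannels, and hemichannels of neighbouring cells dock to pass ions and small molecules. Astrocytes are coupled mainly by connexin 43 (Gja1) and connexin 30 (Gjb6), with connexin 26 (Gjb2) as a lesser partner that is also abundant in the leptomeninges. Oligodendrocytes make connexin 32 (Gjb1) and connexin 29 (Gjc3), among others, and many neurons, interneurons above all, form electrical synapses of connexin 36 (Gjd2). The label under which the genes were grouped names astrocytes, oligodendrocytes and neurons only. Gja4 (connexin 37) is best known from arterial endothelium, and Gjc1 (connexin 45) from vascular mural cells and from developing and some adult neurons.

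The libraries held 13030277 to 18993050 counts. Levels are given as CPM, the count of a gene scaled by the library total to a common depth. Where genes are compared with each other they are given as CPM per kilobase of the deposited gene length (RPKM). A count of 0 allows up to 3 counts, or 0.158 to 0.23 CPM depending on the library, for counting error only. The labels do not say whether libraries came from separate animals or litters, so each p-value speaks to the variation among these libraries alone, and that variation can be technical. Both replicate 2 libraries of day 3 went against the male label, with 4998 to 5130 counts of Xist, the RNA of the inactive X chromosome, and 34 to 74 counts over 4 Y-linked genes, against at most 81 and at least 2023 in the other 6 libraries. At week 8 the libraries of both groups also split by replicate number: Rpph1 had 959735 to 1002307 counts in replicate 1 and 0 to 2 in replicate 2. The day 3 libraries had 872768 to 1119905 counts of it, like replicate 1 of week 8. In the week 8 replicate 2 libraries, age and this difference in library content cannot be told apart. The hippocampal identity of the tissue rests on the labels, and astrocyte, oligodendrocyte and neuronal markers were counted in every library.

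Upstream sequences are shown for Gjb6, Gja1 and Gjb2, which were each lower in IUGR at day 3. They are also shown for Gjc3 of oligodendrocytes and Gjd2 of neurons, which moved in opposite directions with age. Each is the 250 bases before the annotated start, 5′ to 3′ on the strand of the gene, from RefSeq on GRCm38.p6. They lie at chr14:57133612-57133861 (minus strand) for Gjb6, chr14:57104703-57104952 (minus) for Gjb2, chr10:56377050-56377299 (plus) for Gja1, chr5:137963099-137963348 (minus) for Gjc3 and chr2:114013620-114013869 (minus) for Gjd2. Capitals mark matches to any of 4 searched motifs.
Gjb6: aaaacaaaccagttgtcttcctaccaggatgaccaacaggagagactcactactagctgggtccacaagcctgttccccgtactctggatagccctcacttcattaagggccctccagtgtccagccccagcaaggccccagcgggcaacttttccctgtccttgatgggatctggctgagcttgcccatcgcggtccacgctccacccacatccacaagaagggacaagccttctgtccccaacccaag
Gjb2: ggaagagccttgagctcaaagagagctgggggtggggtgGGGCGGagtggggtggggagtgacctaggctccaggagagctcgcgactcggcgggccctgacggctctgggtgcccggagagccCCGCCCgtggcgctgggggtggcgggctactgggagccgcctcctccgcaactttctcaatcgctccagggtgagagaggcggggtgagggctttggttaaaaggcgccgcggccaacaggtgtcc
Gja1: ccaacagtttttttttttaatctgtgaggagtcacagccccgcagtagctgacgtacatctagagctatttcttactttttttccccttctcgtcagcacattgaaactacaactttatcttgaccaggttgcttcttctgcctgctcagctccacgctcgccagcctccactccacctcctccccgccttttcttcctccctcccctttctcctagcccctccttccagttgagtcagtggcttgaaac
Gjc3: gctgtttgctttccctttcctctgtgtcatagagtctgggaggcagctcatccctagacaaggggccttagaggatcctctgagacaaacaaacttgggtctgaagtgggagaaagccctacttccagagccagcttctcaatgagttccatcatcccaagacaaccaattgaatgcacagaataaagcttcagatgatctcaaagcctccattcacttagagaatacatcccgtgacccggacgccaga
Gjd2: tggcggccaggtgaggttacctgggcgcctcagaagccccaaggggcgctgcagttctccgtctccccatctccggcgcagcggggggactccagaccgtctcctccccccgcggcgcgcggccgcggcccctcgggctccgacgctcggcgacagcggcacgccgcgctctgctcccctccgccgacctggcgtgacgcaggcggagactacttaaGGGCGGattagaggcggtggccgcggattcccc

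Of the 8 genes, 7 had an upstream sequence and 6 of them a single start, while Gjb1 had 4 annotated starts and is not shown. The motifs were searched on both strands: the GC box GGGCGG, found in 32.7% of all 32851 upstream sequences of this length; the TATA box TATAAA, in 12.4%; the glucocorticoid receptor half-site AGAACA, in 16.1%; and the SOX core ACAAAG, in 16.5%. No match overlapped another. Only the GC box was matched. Gjb2 had it on the plus strand of the gene 211 bases and on the minus strand 126 bases before the start, Gjd2 33 bases before the start and Gja4 79 bases before it. The windows of Gjb6, Gja1 and Gjc3 held none of the 4 motifs. The GC content was 74% in Gjd2, 69.2% in Gjb2, 61.2% in Gja4, 56.8% in Gjb6, 50% in Gja1 and 48.8% in Gjc3, against a median of 52.4% over all upstream sequences. A match is a description of letters and says nothing of binding.

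On the GENCODE M21 annotation of GRCm38, Gjb6 (chromosome 14, 57123303 to 57133611, minus strand) and Gjb2 (chromosome 14, 57098600 to 57104702, minus strand) are neighbours with 18600 bases between them. Gja1 lies on chromosome 10 (56377330 to 56402513, plus strand), Gjb1 on the X chromosome (101376378 to 101385629, plus), Gjc3 on chromosome 5 (137953461 to 137963098, minus), Gja4 on chromosome 4 (127311421 to 127314039, minus) and Gjc1 on chromosome 11 (102799579 to 102819700, minus). Gjd2 (chromosome 2, 114009601 to 114013619, minus strand) overlaps A530058N18Rik on the other strand, and since the strandedness of the counting is not given in the sources used here, reads of these 2 genes cannot be told apart.

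Gja1 was the leading connexin transcript in every group, and what stood next to it changed with age. At week 8 it reached 48.6 to 84.1 RPKM over the 4 libraries, followed by Gjb6 at 32.3 to 59.1 and Gjc3 at 12.3 to 18.0 RPKM. Below these came Gjb1 (3.15 to 7.76 RPKM) and Gjb2 (1.80 to 11.01 RPKM), then Gjd2 (1.12 to 1.83), Gjc1 (0.472 to 1.29) and Gja4 (0.281 to 1.03 RPKM). The ranges of Gja1 and Gjb6 overlapped, as did those of Gjb1 and Gjb2, of Gjb2 and Gjd2, of Gjd2 and Gjc1 and of Gjc1 and Gja4, over all 4 libraries. Within a library Gja1 was above Gjb6, Gjb2 above Gjd2 and Gjd2 above Gjc1 in 4 of 4, whereas Gjb1 was above Gjb2, and Gjc1 above Gja4, in 3 of 4.

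At day 3 Gja1 stood alone at the top with 19.1 to 39.8 RPKM. The neuronal Gjd2 (4.06 to 10.4 RPKM), Gjc1 (4.52 to 7.86) and Gjb6 (1.91 to 7.56 RPKM) shared the next place with overlapping ranges. Gjb2 had 1.30 to 4.84 RPKM and Gja4 0.975 to 1.93 RPKM, overlapping each other and Gjb6. The oligodendrocyte connexins were last, Gjb1 at 0.470 to 0.762 and Gjc3 at 0.307 to 0.533 RPKM, and their ranges overlapped too.

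**Figure D1:**
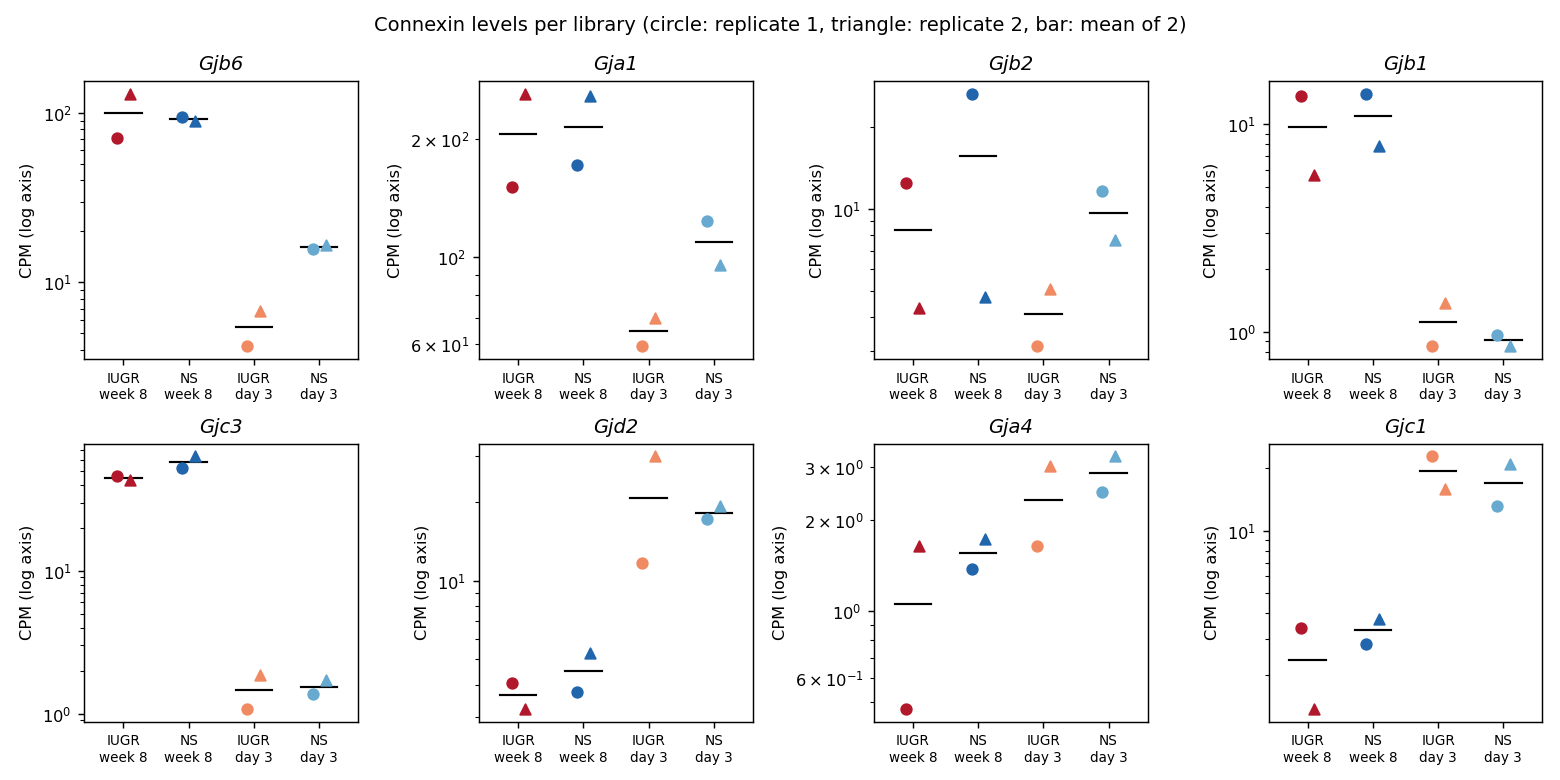
CPM of the 8 connexin genes on a log axis in each of the 8 libraries; circles are replicate 1, triangles replicate 2 and bars the mean of 2. Gjb6, Gja1, Gjb1 and Gjc3 lie higher in all 4 week 8 libraries than in all 4 day 3 libraries, Gjd2 and Gjc1 lie lower, and Gjb6 reads 4.195 and 6.78 CPM in IUGR day 3 against 15.8 and 16.6 CPM in NS day 3.

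Expressed as shares of the summed RPKM of all 20 connexin genes, the 8 genes made up 93.8 to 96.9% in every library. The sum itself was 116 to 169 RPKM at week 8 and 37.8 to 66.7 RPKM at day 3. Gjb6 took 28 and 34.9% in IUGR week 8 and 30.1 and 25.2% in NS week 8, against 5.04 and 6.36% in IUGR day 3 and 10.7 and 12.5% in NS day 3. Gja1 took a share of 38.8 to 51.1% at week 8 and 46.6 to 59.7% at day 3, ranges that overlap. Gjd2 and Gjc1 had shares of at most 1.22 and 1.01% at week 8, against at least 8.92 and 6.78% at day 3.

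**Figure D2:**
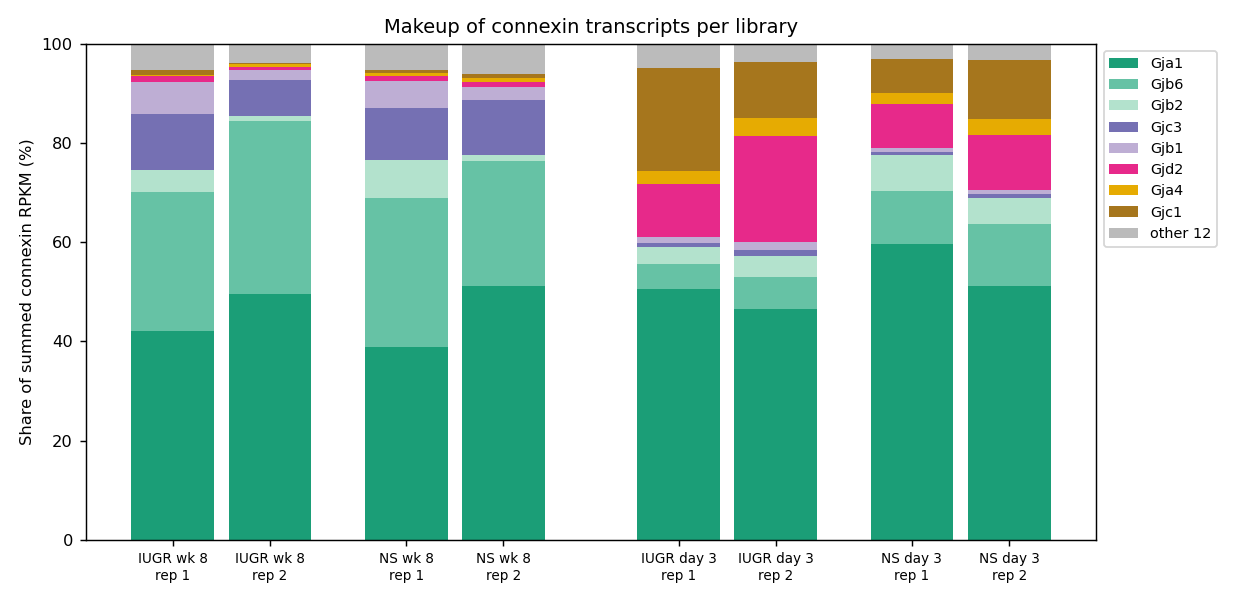
Share of each connexin gene in the summed connexin RPKM of a library, in percent; each bar is 1 library, and the grey segment holds the 12 other connexin genes. Gjb6 fills 25.2 to 34.9% and Gjc3 7.24 to 11.2% of the week 8 bars, and Gjd2 fills 8.92 to 21.4% and Gjc1 6.78 to 20.8% of the day 3 bars.

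The comparison of IUGR with NS at day 3 asked how the neonatal hippocampus differed after dexamethasone. Gjb6, Gja1 and Gjb2 were the ones whose IUGR and NS libraries did not overlap, and all 3 were lower in IUGR. Gjb2 is also a leptomeningeal gene, and its profile over both ages was unlike that of the other 2. Over the 8 libraries its log2(CPM + 1) correlated at 0.383 with Gjb6 and 0.225 with Gja1, against 0.954 between Gjb6 and Gja1. These correlations include the week 8 libraries, in which Gjb2 split by replicate number. Within day 3, Gjb2 ordered the libraries as Gja1 did. Gjb6 had 4.195 and 6.78 CPM in IUGR day 3 libraries, against 15.8 and 16.6 CPM in NS day 3 libraries. The highest IUGR library was thus below the lowest NS library, and the log2 fold change was -1.56 ± 0.36 (SE, edgeR, n = 2 libraries each). Gja1 had 59.3 and 70.2 CPM in IUGR day 3 and 123.6 and 95.7 CPM in NS day 3, with a log2 fold change of -0.76 ± 0.35. Gjb2 had 3.12 and 5.07 CPM in IUGR day 3 and 11.6 and 7.65 CPM in NS day 3, with a log2 fold change of -1.24 ± 0.85, an error that makes its size uncertain.

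These 3 were 3 of 8 genes lower without overlap, where 16.6% of all 15999 tested genes were, and 0 of 8 were higher without overlap, against 19.7% of all genes. The genes were listed with this contrast in view, so the counts are a description and no p-value is given for them. With all 8 libraries in the fit, edgeR passed 0 of 15999 genes at an adjusted p of 0.05, a share of 0%, and so 0 of the 8. Of all genes 96 had an unadjusted p under 0.05, 1 of them among the 8. DESeq2 on the 4 day 3 libraries alone called 63 genes lower, 0.408% of 15435, and Gjb6 and Gja1 were 2 of these; it called 2 genes higher, 0.013%. With the replicate number as a block it called 13 genes lower, 0.0975% of 13340, among them Gjb6. Gjb6 and Gja1 were listed with this contrast known, so these calls are a description and no evidence for them.

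No single library set these directions. With each of the 8 libraries left out in turn the log2 fold change ran from -1.94 to -1.29 for Gjb6, from -0.94 to -0.59 for Gja1 and from -1.62 to -0.93 for Gjb2. Without both replicate 2 libraries of day 3, which go against the male label, it was -1.90 ± 0.61 for Gjb6, -1.05 ± 0.65 for Gja1 and -1.89 ± 1.41 for Gjb2. The ratio of IUGR to NS within replicate 1 and within replicate 2 was 0.266 and 0.408 for Gjb6, 0.480 and 0.733 for Gja1, and 0.268 and 0.663 for Gjb2.

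Markers of other cells moved with these genes. In bulk tissue fewer cells of a type and less RNA per cell cannot be told apart. The summed level of 12 astrocyte markers other than connexins was 1729 and 1752 CPM in IUGR day 3 and 2062 and 1659 CPM in NS day 3, so the groups overlapped. Of the 12 markers 3 were higher and 9 lower in IUGR, with a median log2 fold change of -0.16, against 0.01 over all tested genes. All 11 meningeal markers were lower (median -0.985), and their sum was 501.5 and 560.8 CPM in IUGR day 3, against 1347 and 1129 CPM in NS day 3. Of the endothelial markers 7 of 8 and of the mural cell markers 8 of 8 were lower, with sums of 84.2 to 88.7 CPM in IUGR against 120.6 to 124.7 CPM in NS and of 88.0 to 91.1 CPM in IUGR against 125.7 to 137.5 CPM in NS. The 6 choroid plexus markers were all lower too, but their sums of 444.1 to 3198 CPM in IUGR and 79.0 to 6228 CPM in NS overlapped. No marker of these 5 lists was at 0 in all libraries, and their part in the connexin values was not tested.

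Set against astrocyte markers, Gjb6, Gja1 and Gjb2 did not overlap between the groups at day 3. Gjb6 had 2.43 and 3.87 reads per 1000 astrocyte marker reads in IUGR day 3 and 7.64 and 10.0 in NS day 3. Gja1 had 34.3 and 40.1 in IUGR day 3 and 59.9 and 57.7 in NS day 3. Gjb2 had 1.80 and 2.89 in IUGR day 3 and 5.64 and 4.61 in NS day 3. Per 1000 meningeal marker reads the groups did not stay apart for Gjb2, which had 6.22 and 9.04 in IUGR day 3 and 8.63 and 6.78 in NS day 3. Gjb6 on that scale had 8.37 and 12.1 in IUGR day 3 and 11.7 and 14.7 in NS day 3, which overlap as well. For Gja1 no such ratio was listed, but the meningeal sum differed more between the groups than Gja1 did. It was 501.5 and 560.8 CPM in IUGR day 3 against 1347 and 1129 CPM in NS day 3. Relative to meningeal markers Gja1 was thus higher in IUGR, the reverse of its direction against astrocyte markers.

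**Figure D3:**
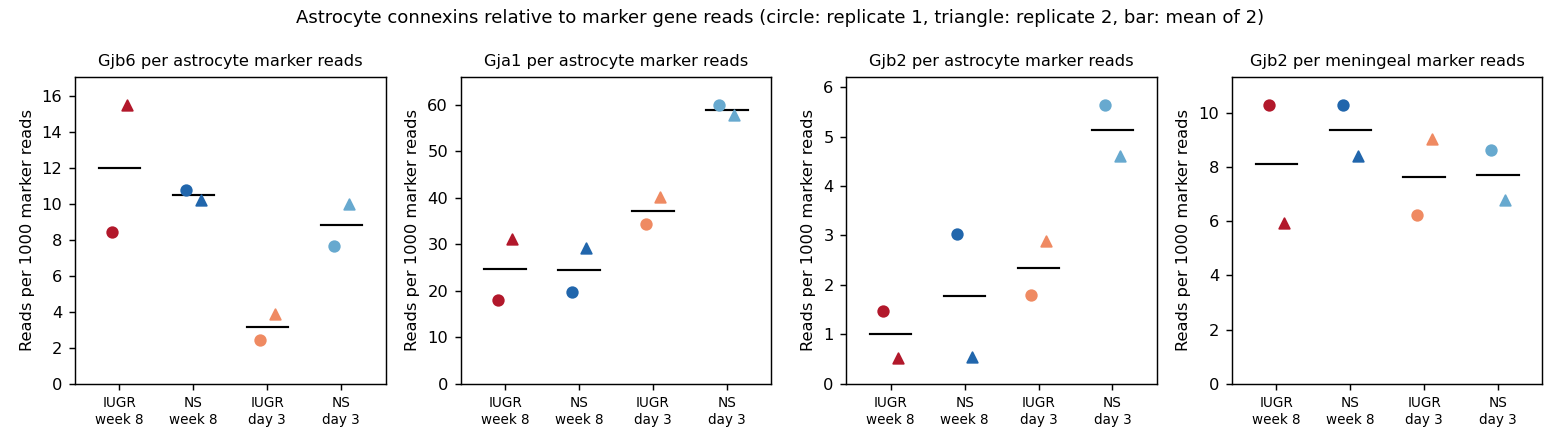
Reads of Gjb6, Gja1 or Gjb2 per 1000 reads of astrocyte or meningeal marker genes in each library; circles are replicate 1, triangles replicate 2 and bars the mean of 2. At day 3 the IUGR libraries lie below the NS libraries for Gjb6, Gja1 and Gjb2 per astrocyte marker reads, and the groups overlap for Gjb2 per meningeal marker reads.

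The other 5 genes overlapped between IUGR and NS at day 3. The oligodendrocyte genes had few counts at this age, with 15 and 25 counts in IUGR against 14 and 15 in NS for Gjb1, and 19 and 34 counts in IUGR against 20 and 30 in NS for Gjc3. Their log2 fold changes were 0.29 ± 0.58 and -0.07 ± 0.32. Gjd2 had 11.7 and 29.9 CPM in IUGR day 3 and 17.1 and 19.2 CPM in NS day 3, so that its IUGR libraries stood on either side of NS (0.19 ± 0.45). Gjc1 (22.9 and 15.9 CPM in IUGR, 13.1 and 21.0 CPM in NS) had a log2 fold change of 0.19 ± 0.47, and Gja4 (1.64 and 3.03 CPM in IUGR, 2.48 and 3.25 CPM in NS) one of -0.30 ± 0.63. Without both replicate 2 libraries of day 3 the log2 fold changes were -0.55 for Gjd2, 0.81 for Gjc1 and -0.34 for Gjc3.

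At week 8 Gjb6, Gja1 and Gjb2 overlapped between IUGR and NS. Gjb6 had 71.1 and 129.8 CPM in IUGR week 8, on either side of the 94.2 and 89.8 CPM in NS week 8, with a log2 fold change of 0.20 ± 0.34. Gja1 had 150.9 and 261.0 CPM in IUGR week 8 and 171.7 and 257.0 CPM in NS week 8 (0.02 ± 0.35). Its replicate 2 library was the higher one in both groups.

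Gjb2 had the opposite split at week 8, with 12.4 and 4.32 CPM in IUGR and 26.5 and 4.74 CPM in NS (replicates 1 and 2). The summed meningeal markers were also higher in replicate 1, at 1214 and 725.7 CPM in IUGR week 8 and 2568 and 562.5 CPM in NS week 8. Per 1000 meningeal marker reads Gjb2 was at 10.3 and 5.95 in IUGR week 8 and 10.3 and 8.42 in NS week 8, a narrower spread than its CPM. The log2 fold change was -0.81 ± 0.83, and 0.88 without NS week 8 replicate 1.

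Gjc3 was the 1 gene of the 8 without overlap at week 8. It had 45.7 and 43.1 CPM in IUGR week 8 and 52.7 and 63.1 CPM in NS week 8, with a log2 fold change of -0.31 ± 0.28. Among all tested genes 9.01% were lower and 4.08% higher without overlap at this age. Beside it, the oligodendrocyte marker sum was 4728 and 5765 CPM in IUGR week 8 and 5696 and 5734 CPM in NS week 8, and 10 of 12 markers were lower, with a median log2 fold change of -0.16. Gjc3 per 1000 oligodendrocyte marker reads overlapped between the groups, at 9.65 and 7.48 in IUGR and 9.26 and 11 in NS.

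The remaining genes overlapped at week 8. Gjb1 had 13.7 and 5.69 CPM in IUGR week 8 and 14.0 and 7.85 CPM in NS week 8 (-0.09 ± 0.51), and replicate 1 was the higher library in both groups. Gjd2 (4.06 and 3.22 CPM in IUGR, 3.76 and 5.27 in NS) and Gjc1 (3.38 and 1.37 CPM in IUGR, 2.84 and 3.74 in NS) were low in all 4 libraries. Gja4 had 7 and 24 counts in IUGR week 8 and 18 and 33 counts in NS week 8. The endothelial marker sum, for comparison, was 83.0 and 53.0 CPM in IUGR week 8 and 150.3 and 126.3 CPM in NS week 8, and 8 of 8 markers were lower, 6 of them with an unadjusted p under 0.05. In edgeR's test 0 of 15999 genes passed at week 8 (0%), with 161 at an unadjusted p under 0.05 and 0 of these among the 8. DESeq2 on the week 8 libraries alone called 1 gene lower, 0.0066% of 15143, and a block for the replicate number made that 3 genes, 0.0198%; 0 of the 8 were called in either.

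Whether the IUGR effect differed between ages was fitted as an interaction. The log2 difference of effects, week 8 minus day 3, was 1.76 ± 0.49 for Gjb6 and 0.78 ± 0.49 for Gja1. In edgeR's test 0 of 15999 genes passed (0%), 82 had an unadjusted p under 0.05, and Gjb6 was 1 of these. The contrast contains the day 3 values by which the genes were known, so it adds no test of its own.

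With age the astrocyte connexin Gjb6 and the oligodendrocyte connexins Gjb1 and Gjc3 rose in both groups and Gjd2 and Gjc1 fell in both, while by edgeR Gja1 passed in IUGR and not in NS, and Gjb2 and Gja4 passed in neither. Taking all 4 libraries of each age, 4 of the 8 genes were higher without overlap (21.1% of all tested genes), 2 were lower (26%) and 2 overlapped. In edgeR's test 4 genes rose and 2 fell in IUGR, where 9.34% of all genes rose and 7.48% fell (16.8% together). In NS 3 rose and 2 fell, where 7.7% rose and 6.44% fell (14.1% together). Levels of all groups were known when the genes were listed. These calls, and the p-values and calls given for each of the 8 genes below, describe the sizes and are no independent evidence. The median log2 fold change over the 8 genes was 1.46 in IUGR and 0.85 in NS, against 0.02 and 0.04 over all tested genes.

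**Figure D4:**
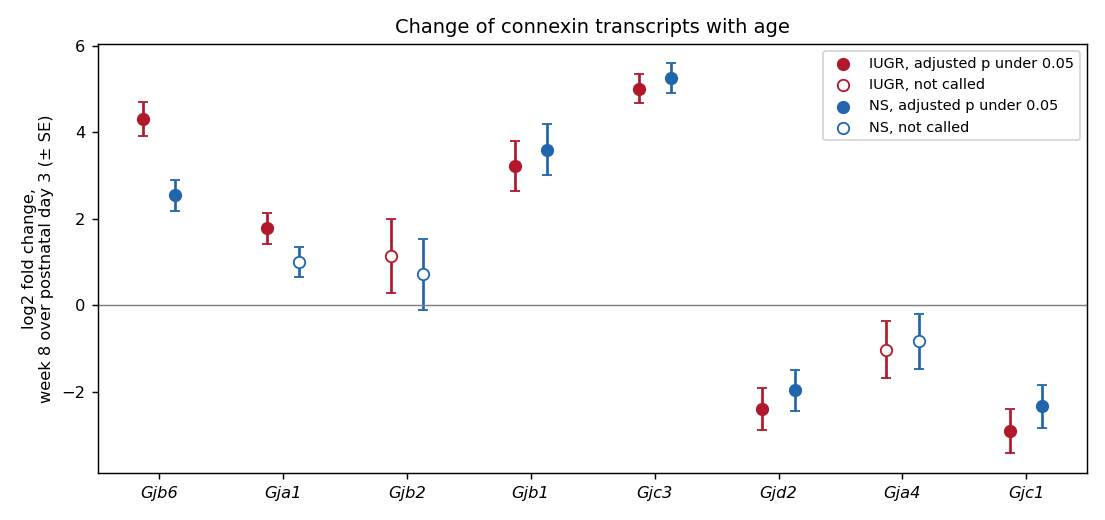
Log2 fold change, week 8 over day 3, of the 8 connexin genes in IUGR and in NS; bars are ± SE from edgeR and filled points have an adjusted p under 0.05. Gjb6, Gjb1 and Gjc3 rose in both groups, Gjd2 and Gjc1 fell in both, and Gjb6 reads 4.30 ± 0.39 in IUGR against 2.54 ± 0.36 in NS.

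Gjb6 rose 19.7-fold in IUGR (log2 fold change 4.30 ± 0.39, edgeR adjusted p = 0.00315) and 5.8-fold in NS (2.54 ± 0.36, adjusted p = 0.00976). Mean levels were 100.5 ± 41.6 CPM in IUGR week 8 against 5.49 ± 1.83 CPM in IUGR day 3, and 92.0 ± 3.13 CPM in NS week 8 against 16.2 ± 0.61 CPM in NS day 3 (SD, n = 2 each). The week 8 libraries of IUGR and NS overlapped, and the larger fold in IUGR came with the lower day 3 level. The call was lost in IUGR without IUGR day 3 replicate 1 (4.00, adjusted p = 0.0503) and in NS without NS day 3 replicate 1 (2.48, 0.113) or replicate 2 (2.57, 0.107). Relative to astrocyte markers Gjb6 had 8.45 and 15.5 reads per 1000 marker reads in IUGR week 8 and 10.8 and 10.2 in NS week 8, above both IUGR day 3 libraries and, except for IUGR week 8 replicate 1, above both NS day 3 libraries.

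Gja1 rose 3.43-fold in IUGR (1.78 ± 0.36, adjusted p = 0.0211), with 206.0 ± 77.8 CPM in IUGR week 8 against 64.7 ± 7.68 CPM in IUGR day 3 (SD, n = 2 each). In NS it averaged 214.4 ± 60.4 CPM at week 8 and 109.6 ± 19.7 CPM at day 3, a log2 fold change of 1.00 ± 0.35 that did not pass (adjusted p = 0.104). DESeq2 did call it in NS (1.01, 0.0435). The IUGR call was lost without IUGR week 8 replicate 2 (1.32, 0.0771), IUGR day 3 replicate 1 (1.67, 0.166) or replicate 2 (1.89, 0.131), and NS day 3 replicate 1 (1.78, 0.0561) or replicate 2 (1.77, 0.0567). The sum of astrocyte markers was 8369 to 8798 CPM at week 8 and 1659 to 2062 CPM at day 3, and 9 of 12 passed higher in IUGR and 8 of 12 in NS. Of all tested genes 9.34% passed higher in IUGR and 7.7% in NS. Per 1000 astrocyte marker reads Gja1 was lower at week 8, with 17.9 and 31.2 in IUGR and 19.7 and 29.2 in NS, against 34.3 and 40.1 in IUGR day 3 and 59.9 and 57.7 in NS day 3.

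Gjb2 did not pass in either group. Its log2 fold change was 1.14 ± 0.85 in IUGR (adjusted p = 0.382) and 0.71 ± 0.83 in NS (0.59), and without NS week 8 replicate 1 the NS value turned to -0.99. Without both replicate 2 libraries of week 8 Gjb2 passed in both, at 1.72 (0.00759) in IUGR and 1.48 (0.012) in NS, while without both replicate 1 libraries the values were 0.18 (0.725) in IUGR and -0.99 (0.0729) in NS. In IUGR the value stayed above 0 with each library left out in turn, from 0.18 to 1.70.

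Gjc3, an oligodendrocyte connexin, had the largest log2 fold change of the 8 in both groups. It had 45.7 and 43.1 CPM in IUGR week 8 and 52.7 and 63.1 CPM in NS week 8, against 1.08 and 1.87 CPM in IUGR day 3 and 1.38 and 1.71 CPM in NS day 3. The change was 32.2-fold in IUGR (5.01 ± 0.34, adjusted p = 0.00188) and 38.0-fold in NS (5.25 ± 0.34, 0.00219). The call held with each of the 8 libraries left out in turn, at log2 fold changes of 4.68 to 5.45 in IUGR and 5.09 to 5.41 in NS.

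Gjb1 rose 9.32-fold in IUGR (3.22 ± 0.57, adjusted p = 0.0154) and 12.1-fold in NS (3.6 ± 0.59, 0.0141). Its day 3 level was 0.850 and 1.38 CPM in IUGR and 0.963 and 0.856 CPM in NS. The call was lost without IUGR day 3 replicate 1 (2.93, 0.133) or replicate 2 (3.59, 0.0955) in IUGR, and without NS day 3 replicate 1 (3.67, 0.131) or replicate 2 (3.51, 0.137) in NS. Gjb1 is X-linked, and the day 3 replicate 2 libraries carry Xist.

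The 12 oligodendrocyte markers rose with these genes, 12 of 12 in IUGR and 11 of 12 in NS, with medians of 5.28 and 5.64. Their sum was 4728 to 5765 CPM at week 8 and 104.5 to 129.1 CPM at day 3. Against this sum Gjc3 stayed in a narrow band, at 7.48 to 11 reads per 1000 marker reads at week 8 and 10.3 to 15.6 at day 3. Gjb1 was lower per marker read at week 8, with 2.90 and 0.987 in IUGR and 2.47 and 1.37 in NS, against 8.13 and 11.5 in IUGR day 3 and 7.48 and 6.63 in NS day 3. The day 3 values rest on 14 to 34 counts per library.

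Gjd2, the connexin of neuronal electrical synapses, fell to 4.06 and 3.22 CPM in IUGR week 8, against 11.7 and 29.9 CPM in IUGR day 3 (log2 fold change -2.40 ± 0.48, edgeR adjusted p = 0.0212). In NS it fell to 3.76 and 5.27 CPM at week 8, against 17.1 and 19.2 CPM at day 3 (-1.97 ± 0.47, 0.0393). Of the interneuron markers, 7 of 8 were higher at week 8 in each group, with median log2 fold changes of 1.04 in IUGR and 0.99 in NS, and in each group 2 passed higher and 1 lower. Of all tested genes 9.34% passed higher and 7.48% lower in IUGR, and 7.7% higher and 6.44% lower in NS. Per 1000 interneuron marker reads Gjd2 had 5.02 and 2.66 in IUGR week 8 and 4.73 and 3.83 in NS week 8, against 28.9 and 45.3 in IUGR day 3 and 27.6 and 35.9 in NS day 3. The call was lost in 6 of 8 fits with a library left out in IUGR and in 4 of 8 in NS. In IUGR it was lost without IUGR week 8 replicate 1 (-2.58, 0.0552) or 2 (-2.25, 0.103), IUGR day 3 replicate 1 (-2.92, 0.0511) or 2 (-1.59, 0.109), and NS day 3 replicate 1 (-2.40, 0.0592) or 2 (-2.40, 0.0591). In NS it was lost without NS week 8 replicate 1 (-1.76, 0.0788) or 2 (-2.26, 0.0845) and NS day 3 replicate 1 (-2.07, 0.176) or 2 (-1.89, 0.2), and by limma voom (-1.97, 0.053).

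Gjc1 fell to 3.38 and 1.37 CPM in IUGR week 8, against 22.9 and 15.9 CPM in IUGR day 3 (-2.92 ± 0.51, adjusted p = 0.015). In NS it fell to 2.84 and 3.74 CPM at week 8, against 13.1 and 21.0 CPM at day 3 (-2.34 ± 0.50, 0.0289). The mural cell markers, among which Gjc1 is known, had sums of 83.5 to 234.8 CPM at week 8 and 88.0 to 137.5 CPM at day 3, which overlap. Gjc1 thus stood at 12.1 to 29.0 per 1000 mural marker reads at week 8 and 95.5 to 251 at day 3. The IUGR call was lost without IUGR week 8 replicate 2 (-2.42, 0.0524) and IUGR day 3 replicate 1 (-2.62, 0.109) or 2 (-3.17, 0.0751). The NS call was lost without NS week 8 replicate 1 (-2.16, 0.058) or 2 (-2.57, 0.0731), IUGR day 3 replicate 1 (-2.35, 0.0687) or 2 (-2.34, 0.068), and NS day 3 replicate 1 (-2.65, 0.117) or 2 (-1.97, 0.182).

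Gja4 ranked last of the 8 by mean RPKM at week 8. It had 0.473 and 1.65 CPM in IUGR week 8 and 1.38 and 1.74 CPM in NS week 8, against 1.64 and 3.03 CPM in IUGR day 3 and 2.48 and 3.25 CPM in NS day 3. The log2 fold changes of -1.03 ± 0.66 in IUGR (adjusted p = 0.309) and -0.84 ± 0.64 in NS (0.401) did not pass. Per 1000 endothelial marker reads Gja4 ranged from 5.7 to 31 at week 8 and from 18.5 to 36 at day 3.

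Without both replicate 2 libraries of day 3, which go against the male label, each day 3 group held 1 library. The calls with age were lost in both groups, for all tested genes and not for connexins alone, and the cause was not tested. Leaving out any single day 3 library also lowered the number of all genes called with age in both groups. The log2 fold changes were 4.67 (adjusted p = 0.23) for Gjb6 and 5.44 (0.23) for Gjc3 in IUGR, and 2.57 (0.327) for Gjb6 and 5.41 (0.243) for Gjc3 in NS. Among the 6 genes called in IUGR, Gjd2 moved by more than 1.5 times, to -1.59 (0.332). Without both replicate 2 libraries of week 8 all 8 genes passed in IUGR and 7 in NS, in fits where 6778 and 6201 of 16370 genes passed.

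Among the other connexin genes in the tables, Gja5, Gja6 and Gjd3 passed the expression filter at low levels, at most 1.51 CPM in every library. Gje1 had 0 counts in all 8 libraries, and Gja10 and Gjb5 had 0 counts in all 4 week 8 libraries. Of all tested genes 16.6% were lower and 19.7% higher in IUGR without overlap at day 3, and 9.01% were lower at week 8. At day 3 Gja6 was lower without overlap (11 and 9 counts in IUGR, 15 and 21 in NS). Gjd3 was higher (18 and 9 counts in IUGR, 6 and 6 in NS). At week 8 Gja5 was lower, with 3 and 3 counts in IUGR against 18 and 4 in NS, near the 3 counts allowed for counting error. Between IUGR and NS 0 of these 3 passed at either age (edgeR adjusted p = 1), 0 passed with age, and 0 had an unadjusted p under 0.05 in any of these comparisons. The annotations of Gja5 and Gja6 overlap those of other genes, so their counts are uncertain.

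Pannexins form channels of similar build in a single membrane. Panx1 fell with age, with 11.8 and 17.6 CPM in IUGR week 8 and 10.4 and 16.4 CPM in NS week 8, against 63.0 and 64.4 CPM in IUGR day 3 and 60.4 and 54.6 CPM in NS day 3. The log2 fold change was -2.01 ± 0.31 in IUGR (edgeR adjusted p = 0.011) and -2.07 ± 0.32 in NS (0.0119). It was lost without either day 3 library of the group tested (highest adjusted p 0.0875 in IUGR and 0.101 in NS). Panx2 split by replicate number at week 8, with 18.5 and 115.4 CPM in IUGR and 19.5 and 149.3 CPM in NS, and did not pass with age (adjusted p = 0.108 in IUGR and 0.118 in NS). Panx3 had 0 counts in 6 of 8 libraries.

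Of 10 genes whose proteins bind, scaffold or accompany connexins, 3 rose and 1 fell in IUGR and 2 rose and 1 fell in NS. Over all tested genes 9.34% rose and 7.48% fell in IUGR, and 7.7% rose and 6.44% fell in NS. Mlc1 and Hepacam, membrane proteins of astrocyte endfeet, rose in both. Mlc1 had 239.3 and 202.6 CPM in IUGR week 8 and 219.6 and 212.4 CPM in NS week 8, against 103.6 and 102.4 CPM in IUGR day 3 and 119.8 and 83.1 CPM in NS day 3 (1.21 ± 0.24, edgeR adjusted p = 0.021 in IUGR; 1.12 ± 0.24, 0.0295 in NS). Hepacam had log2 fold changes of 2.32 ± 0.55 (0.0347) in IUGR and 2.41 ± 0.56 (0.0357) in NS. It split by replicate number at week 8, with 46.2 and 109.8 CPM in IUGR and 51.8 and 120.9 CPM in NS. At day 3 it had 14.7 and 18.85 CPM in IUGR and 18.8 and 14.4 CPM in NS. Cav1, caveolin 1 of endothelium, fell in both, to 0.477 of the day 3 level in IUGR (adjusted p = 0.0403) and 0.417 in NS (0.0285). These calls were lost in 4 to 6 of the 8 fits with a library left out, each time without either day 3 library of IUGR, with highest adjusted p values of 0.158 to 0.24.

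Nov (CCN3, a secreted protein reported to bind connexin 43) was the only 1 of the 10 with an unadjusted p under 0.05 between IUGR and NS at day 3. It had 34.9 and 48.3 CPM in IUGR day 3 and 82.7 and 92.8 CPM in NS day 3 (-1.08 ± 0.35, unadjusted p = 0.0182, edgeR adjusted p = 1). With age it rose in IUGR (1.78 ± 0.35, adjusted p = 0.0206, lost without any single day 3 library, highest 0.168) and did not pass in NS (0.76 ± 0.34, 0.183). At week 8 it had 176.6 and 89.6 CPM in IUGR and 153.5 and 137.5 CPM in NS, which overlap. Among partners not called in any contrast, the 4 at the highest level were Dbn1, Tjp1, Src and Csnk1d. Dbn1 ranged from 93.5 to 407.6 CPM over the 8 libraries, Src from 61.1 to 169.9 CPM and Csnk1d from 77.3 to 148.8 CPM. For each of these the week 8 replicate 2 libraries were the highest. Tjp1, the tight junction protein ZO-1 that binds the tail of connexin 43, ranged from 72.7 to 138.8 CPM. Its week 8 replicate 1 libraries were the highest.

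For each gene the genes with the most similar profile, up to 3, were taken by Pearson's r of log2(CPM + 1) over the 8 libraries among 13725 genes. Since the libraries fall into 2 ages, r mostly reflects that split, and it is given as a description. Gjc3 was matched by Mag (r = 0.999), a myelin glycoprotein, Abcg1 (0.998) and Tmem88b (0.997), and Gjb1 by Syne1 (0.999), Mpdz (0.997) and Fn3krp (0.997). Gjb6 was matched by B3gnt2 (0.994), Anxa6 (0.993) and Cldn11 (0.989), and Gja1 by Tmem109 (0.992) and Thsd4 (0.989). The nearest to Gjb2 were Birc3 (0.978), Ranbp3l (0.978) and Serpind1 (0.977), and to Gjd2 Zim1 (0.991), Aldh1a3 (0.99) and Wdr6 (0.989). Gjc1 was nearest to Dtx4 (0.994), Mn1 (0.992) and Maf1 (0.991), and Gja4 to Samd11 (0.973), Apeh (0.973) and Sh3d19 (0.955).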

How the data were processed

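Hippocampal RNA of 8 libraries was analysed, 2 in each of 4 groups taken from the treatment and age labels. Total RNA was depleted of ribosomal RNA and sequenced, per the labels. For each age the authors deposited a table of unnormalized read counts by gene symbol, with a gene length in bases. Per the submitters' processing notes, the build was mm10 and the tools included featureCounts 1.6.1, HISAT2 2.1.0, cutadapt 1.16, SAMtools 1.9 and DESeq2 1.26.0. Strandedness is not given in the sources used, so overlapping genes are uncertain. The authors' normalized tables are the same counts divided by 1 constant per library and were not used. All columns of counts were matched to a sample. Replicates differed far beyond sampling noise (chi-square per degree of freedom 16 to 317.6).

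CPM is the count over the library total, and RPKM divides it by the deposited length. The 15999 genes passing edgeR's default filter, all 8 connexins among them, were fitted with edgeR 4.0.16 in R 4.3.3: TMM scaling (factors 0.95 to 1.031), 4 group means, the quasi-likelihood F test and Benjamini-Hochberg adjustment over all genes, called at an adjusted p under 0.05. The SE is the log2 fold change over the square root of F. On simulated counts with 200 changed genes, this test recovered 0% of 2-fold, 23.9% of 4-fold and 74.2% of 8-fold changes for IUGR against NS at day 3, over 15734 genes, and 0, 31.3 and 86.4% for week 8 against day 3 in NS, over 15765 genes. Alternatives were other scalings and filters, DESeq2 1.42.0, limma 3.58.1 voom, each age alone, the replicate number as a block and each library left out, with a lone library then taken to vary as the other groups do.

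The members, gene lists and tests were chosen with earlier results of these data known. By the rule for named genes the text gives the connexins, the pannexins, the partners called in any contrast plus the 4 with the highest level, and the 3 genes most like each member. A few of them are not reported here. A block within each age, and week 8 without both replicate 1 or both replicate 2 libraries, were alternatives added after the data were seen. Replicate differences correlated across 15999 genes at 0.854 between the groups at week 8 and at -0.0747 at day 3, and the labels do not say what the numbers share, so they were not taken as pairs.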

Additional observations from a re-analysis of the deposited data

How the results depend on the processing

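Without both replicate 2 libraries of postnatal day 3, which go against the male label, each day 3 group held 1 library. The calls with age were lost there for all tested genes and not for connexins alone, and the cause was not tested. Leaving out any single day 3 library also lowered the number of all genes called with age. With all libraries the count of connexins called with age was 6 in IUGR and 5 in NS. With 1 library left out it ran from 1 to 6 in IUGR and from 1 to 5 in NS. With the replicate number as a block it stayed at 6 in IUGR and 5 in NS, where the numbers share no stated origin. With a block within each age it was 6 in both, where 8061 and 7667 of 15999 genes were called. By DESeq2 it was 6 in both and by limma voom 6 in IUGR and 4 in NS. Gjb2 turned to lower with age in NS without both replicate 1 libraries of week 8 (-0.99), and with 1 library left out it ran from -0.994 to 1.47; the cause was not tested. Between IUGR and NS at day 3, DESeq2 on that age alone called 2 of the 8, and 1 with a replicate block, against 0 with all libraries. The genes were listed with this contrast known, so these calls are a description. At week 8 the count was 0 under 21 alternatives, and for the difference between ages under 16. The genes called with age numbered 2691 in IUGR and 2263 in NS, but 4581 and 4116 by DESeq2 and 0 without both replicate 2 libraries of day 3. Ordered by CPM in place of RPKM, 2 connexins took another rank in IUGR day 3, 5 in NS day 3 and 0 at week 8. On simulated counts with 2 libraries a group and 200 changed genes, changes of up to 4-fold were mostly out of reach. Of simulated 4-fold changes 23.9% were recovered for IUGR against NS at day 3 and 31.3% for age in NS. In the data far more than 200 genes were called with age, so the 31.3% need not hold there. Mlc1, for one, passed with age at 2.31-fold in IUGR and 2.17-fold in NS.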
